A study of Mus musculus with 15 samples.

Results

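The urea cycle genes examined here were 8 genes taken by symbol: the 6 enzymes Nags, Cps1, Otc, Ass1, Asl and Arg1, and the 2 mitochondrial carriers Slc25a15 and Slc25a13. They were 8 of the 55984 gene symbols with counts, and all 8 were among the 17488 genes that passed the filter on low counts. Their RNA was measured in hepatocytes of WT adult male C57BL/6JJcl mice, for which the sources name no treatment. The cells were isolated with collagenase and stained alive with the DNA dye Hoechst in the presence of reserpine and DNase. They were then sorted by flow cytometry, with dead cells removed by a second dye. The 2n-whole population held diploid hepatocytes (4 libraries) and the 4n-whole population all tetraploid hepatocytes (4 libraries). Tetraploid cells were also split by the height of the Hoechst signal into 4n-bottom (lower height, enriched for binucleated cells, 4 libraries) and 4n-top (higher height, enriched for mononucleated cells but incompletely pure after 1 round of sorting, 3 libraries). The libraries came from 4 mice, each giving all populations except that the study left out 4n-top of mouse 1 for poor RNA quality. After the sort the study spun down 2n cells at a higher force than 4n cells, and this handling cannot be told apart from the ploidy of the cells.

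The urea cycle turns ammonia, which is toxic, into urea for excretion, and the liver is the only organ with the complete set of enzymes at high level. Nags makes N-acetylglutamate, the obligate activator of Cps1, and Cps1 and Otc then fix ammonia into citrulline inside mitochondria. In the cytosol Ass1 and Asl build arginine from citrulline and aspartate, and Arg1 splits it into urea and ornithine, which the carrier Slc25a15 returns to mitochondria, while Slc25a13 exports the aspartate. These enzymes are known to be most abundant in periportal hepatocytes, whereas hepatocytes around the central vein capture the remaining ammonia as glutamine through glutamine synthetase (Glul).

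Of the 8 genes, 5 had a promoter sequence in the RefSeq table used (GRCm38.p6): Otc, Ass1, Nags, Slc25a13 and Slc25a15. The windows of Otc and Ass1 are shown because these were the 2 genes of the 5 with the largest differences between 4n-whole and 2n-whole. Each runs from 250 bases before to 50 bases after the RefSeq start site, and each matched the GRCm39 genome exactly once on its chromosome, at chrX:10118294-10118593 for Otc and chr2:31360032-31360331 for Ass1, both on the plus strand. Capitals mark matches to any of 9 short motifs on either strand.
Otc: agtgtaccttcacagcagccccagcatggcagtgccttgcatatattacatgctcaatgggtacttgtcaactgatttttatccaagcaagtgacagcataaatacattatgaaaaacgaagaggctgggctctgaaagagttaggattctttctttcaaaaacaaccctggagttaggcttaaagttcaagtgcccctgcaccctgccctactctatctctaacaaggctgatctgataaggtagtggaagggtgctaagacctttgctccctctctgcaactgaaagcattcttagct
Ass1: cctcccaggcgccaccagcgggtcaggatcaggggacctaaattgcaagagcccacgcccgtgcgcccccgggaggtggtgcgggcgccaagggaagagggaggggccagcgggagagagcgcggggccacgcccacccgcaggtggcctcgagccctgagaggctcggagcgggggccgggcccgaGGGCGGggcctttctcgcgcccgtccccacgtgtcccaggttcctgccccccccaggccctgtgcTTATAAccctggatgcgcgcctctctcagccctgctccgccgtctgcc
The motifs were TATAA (TATA box, in 24.9% of 32851 promoter windows of this length), CCAAT (37.4%), GGGCGG (GC box, 35.7%), CAAAGTCCA (HNF4A repeat, 0.475%), AGGTCA (nuclear receptor half-site, 16.3%), TTGCNNAA (C/EBP, 10.8%), GTTAAT (HNF1, 7.1%), TGACG (cAMP element half-site, 20.8%) and TGTTCT (glucocorticoid half-site, 19%). The Otc window had a GC content of 44.3% and held none of these letter strings. The Ass1 window had a GC content of 74.0% and 1 GC box. It also held 2 overlapping matches to TATAA on opposite strands, which begin at bases 3 and 4, after its start site. Its start site lies 8101 bases inside the Ass1 gene as GENCODE M39 draws it, while the Otc window's start site lies 41 bases from the GENCODE start. The Nags window held 2 GC boxes, 1 nuclear receptor half-site and 1 cAMP half-site. A match of letters is not a binding site, and none of these data measured binding.

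The members sit on 8 chromosomes. In GRCm39, Cps1 spans chromosome 1 from 67161988 to 67270418 on the plus strand with 38 exons, Otc chromosome X from 10118503 to 10187265 on the plus strand with 10 exons, Ass1 chromosome 2 from 31352181 to 31410862 on the plus strand with 16 exons, and Nags chromosome 11 from 102036339 to 102040303 on the plus strand with 7 exons. Asl lies on chromosome 5 from 130040099 to 130058088 with 16 exons, Arg1 on chromosome 10 from 24791118 to 24803817 with 8 exons, Slc25a13 on chromosome 6 from 6040252 to 6217294 with 18 exons and Slc25a15 on chromosome 8 from 22865516 to 22889423 with 7 exons, all on the minus strand. A long noncoding RNA is annotated on the opposite strand over part of Cps1, Asl, Arg1, Nags and Slc25a15, and none overlaps Otc, Ass1 or Slc25a13. The strand setting of the counting is not given in the sources used here, so reads of such pairs may not have been kept apart.

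Libraries held between 22049498 and 42096421 counts, and between 1004 and 403509 counts on each urea cycle gene, far above the 3 counts taken as the detection floor. Markers of hepatocytes (6 of 7 listed genes found by symbol) summed to between 75740 and 106500 CPM, that is, counts scaled to a common TMM-adjusted library total. Those of other liver cells were low: 2.40 to 22.4 CPM for 6 endothelial genes, 0.0623 to 7.64 for 6 Kupffer genes, 1.68 to 5.01 for 6 stellate genes, 34.6 to 47.4 in 2n-whole and at most 32.0 in the tetraploid populations for 5 cholangiocyte genes, 0 to 1.15 for 5 lymphocyte genes and 0 to 1.95 for 4 erythroid genes. All 4 erythroid genes and 3 of the 5 cholangiocyte genes were at 0 in 4n-top. In bulk RNA, fewer cells of one kind and less RNA per cell cannot be told apart.

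The 8 genes together took between 1.26% and 1.75% of each library, and Cps1 alone between 51.1% and 58.5% of their counts. To set the genes beside each other, CPM was divided by the merged length of all exons annotated for a gene. This length (6138 bases for Cps1, 3737 for Ass1) can exceed that of the transcript in these cells, so the order depends on it. On this scale the mean level over the 15 libraries fell from Cps1 (1354 CPM per kb, range 1166 to 1518) to Ass1 (1022, 818 to 1243), Arg1 (364, 230 to 495), Asl (117, 59.9 to 181), Otc (69.2, 36.8 to 96.7), Slc25a15 (45.0, 38.1 to 51.3), Slc25a13 (15.7, 12.5 to 18.3) and Nags (13.5, 10.3 to 16.5). The order of the means was the same in all 4 populations. By these means the 5 enzymes of the cycle itself stood above both carriers, and Nags, which makes the activator, stood lowest. The ranges over the 15 libraries did not overlap between Ass1 and Arg1, between Arg1 and Asl, or between Slc25a15 and Slc25a13. Cps1 was above Ass1 in 15 of 15 libraries, although their ranges overlapped. Asl was above Otc in 12 of 15 libraries, and the exceptions were the 3 libraries of mouse 1. Otc was above Slc25a15 in 13 of 15, the exceptions being 4n-whole of mice 2 and 4, and Slc25a13 was above Nags in 12 of 15. Among the 17488 genes tested, ranked by CPM without regard to length, Cps1 stood at place 11, Ass1 at 28, Arg1 at 84, Asl at 131 and Nags at 3111.

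**Figure D1:**
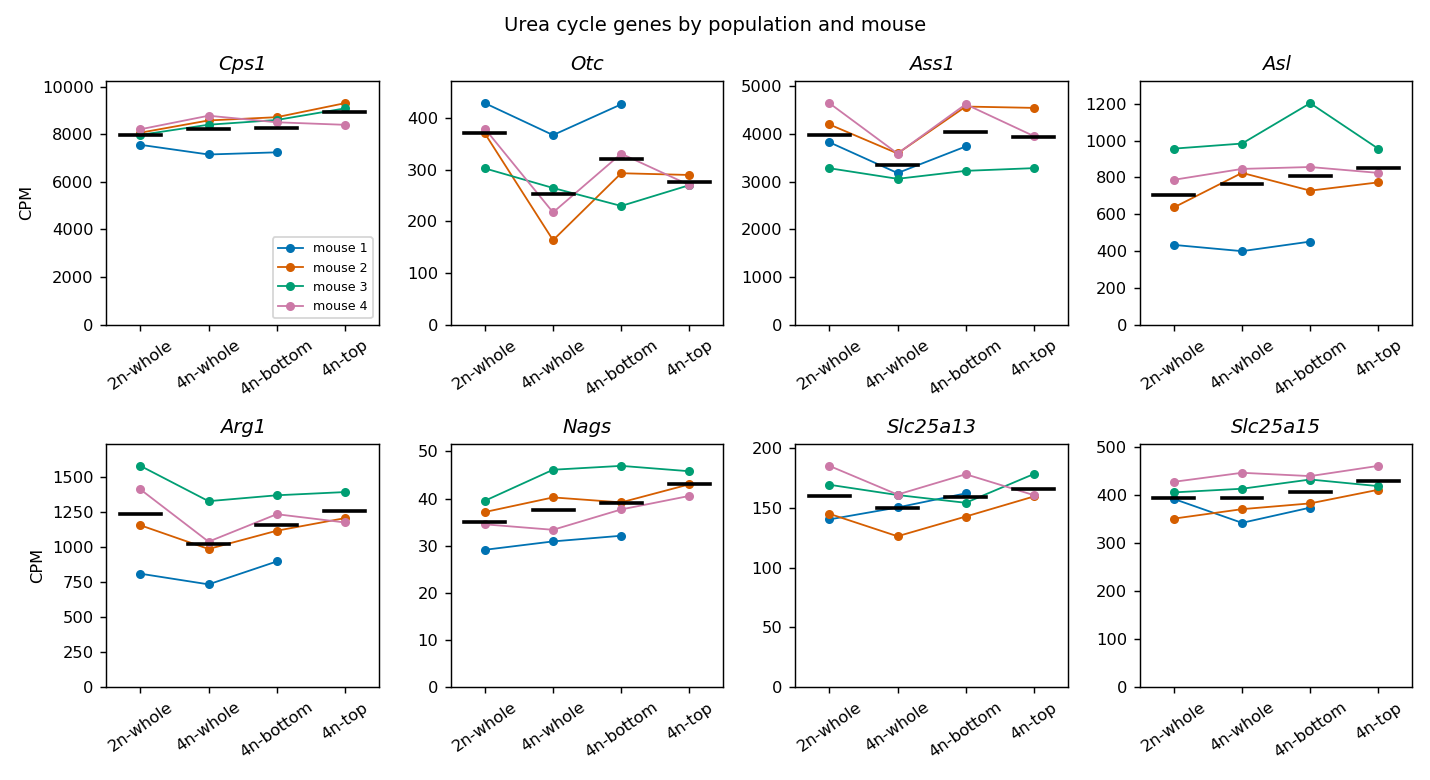
CPM of each urea cycle gene (vertical axes, from 0) in the 4 sorted populations, with 1 point per library, lines joining libraries of the same mouse and a black bar at the mean (n = 4, n = 3 in 4n-top, which lacks mouse 1). Otc in 4n-whole ranged from 164 to 368 CPM and overlapped 2n-whole (303 to 429), while for Asl, Arg1 and Nags the line of mouse 1 lies below those of the other mice.

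The first comparison asked whether the urea cycle genes differ between tetraploid and diploid hepatocytes. Otc, the mitochondrial enzyme that joins carbamoyl phosphate to ornithine, was lower in 4n-whole than in 2n-whole, and Arg1, which releases urea, was lower by a smaller amount. Ass1 had a fitted difference of about the size of that of Arg1 that just missed the threshold, and the differences of Cps1, Asl, Nags and both carriers did not pass the test. With edgeR's quasi-likelihood test and Benjamini-Hochberg adjustment over all tested genes, 1 of the 8 was a differentially expressed gene (DEG) at the study's thresholds, an absolute log2 fold change above 0.5 at an adjusted p under 0.05. Of all tested genes 3.47% were DEGs in this comparison. Without the limit on the fold change 2 of the 8 passed as lower and 0 as higher, against 2.54% of all tested genes lower and 2.93% higher. The median log2 fold change over the 8 genes was -0.05, with 5 of 8 below 0, and over all tested genes it was -0.01.

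Otc was at 429, 371, 303 and 380 CPM in 2n-whole of mice 1, 2, 3 and 4, and at 368, 164, 265 and 218 CPM in 4n-whole of the same mice. It was lower in 4n-whole in 4 of 4 mice, least in mouse 3 and most in mouse 2, although the populations overlapped because 4n-whole of mouse 1 was as high as 2n-whole of other mice. The mean fell from 371 ± 52.1 to 253 ± 86.6 CPM (SD, n = 4 each), and the fitted log2 fold change was -0.58 (SE 0.12, adjusted p = 0.0051), 0.668-fold with a 95% interval of 0.560 to 0.797. By p, Otc was at place 238 of the 17488 genes in this comparison.

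The share of counts on transcripts of the mitochondrial genome was lower in 4n-whole too. It was 20.5%, 23.2%, 26.2% and 26.0% in 2n-whole of mice 1 to 4, and 18.5%, 8.84%, 15.7% and 11.0% in 4n-whole, where the order of the mice was the same as for Otc. In 2n-whole it was not, since mouse 1 had the lowest share and the highest Otc. The share was 23.6%, 15.0%, 12.2% and 14.0% in 4n-bottom of mice 1 to 4, and 11.9%, 13.0% and 12.7% in 4n-top of mice 2 to 4. In neither gate did the difference of Otc from 2n-whole pass the test. The mitochondrial share was added as a covariate after the data were seen. In 4n-whole against 2n-whole, the log2 fold change was then -0.14 for Otc (adjusted p = 0.90) and -0.06 for Arg1 (adjusted p = 0.95). Otc transcripts also had a low GC content (41.4%, percentile 11.7 of the tested genes), and with an offset for GC content and length Otc still passed the adjusted p but at -0.41 (adjusted p = 0.0042), under the limit on the fold change. What part RNA quality or the mitochondrial share had in the result was not tested. Without the replicate block the adjusted p of Otc was 0.31 at a log2 fold change of -0.55, and without mouse 2 its log2 fold change was -0.41 (adjusted p = 0.028), under the limit.

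Arg1 was at 810, 1156, 1580 and 1412 CPM in 2n-whole of mice 1 to 4 and at 734, 987, 1328 and 1039 CPM in 4n-whole. The value in 4n-whole was lower in 4 of 4 mice, while the populations overlapped widely because mice differed more than populations. Its log2 fold change was -0.27 (SE 0.08, adjusted p = 0.047), 0.830-fold with an interval of 0.741 to 0.931. The pass was narrow: the adjusted p was 0.09 without mouse 2, 0.079 without mouse 3, 0.40 without mouse 4, and 0.62 without the replicate block.

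Ass1, which joins citrulline to aspartate, was at 3824, 4198, 3279 and 4644 CPM in 2n-whole of mice 1 to 4 and at 3178, 3589, 3057 and 3587 CPM in 4n-whole. It too was lower in 4n-whole in 4 of 4 mice, with overlapping populations. Its log2 fold change was -0.24 (SE 0.07, adjusted p = 0.055), 0.846-fold with an interval of 0.761 to 0.940. This result sat at the threshold, and DESeq2 with the replicate block gave an adjusted p of 0.0082 at -0.25.

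Cps1, the rate-setting first enzyme, was at 7562, 8073, 7980 and 8216 CPM in 2n-whole of mice 1 to 4 and at 7155, 8588, 8408 and 8787 CPM in 4n-whole, higher in 3 of 4 mice and lower in mouse 1. Its log2 fold change was 0.04 (SE 0.07, adjusted p = 0.78), and the 95% interval of the ratio in this fit was 0.938 to 1.13. The other genes had fitted log2 fold changes of 0.10 for Asl (adjusted p = 0.57), 0.10 for Nags (0.66), -0.10 for Slc25a13 (0.62) and -0.01 for Slc25a15 (0.97). The intervals of their ratios ran from 0.949 to 1.21 for Asl, 0.928 to 1.23 for Nags, 0.823 to 1.07 for Slc25a13 and 0.888 to 1.11 for Slc25a15.

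**Figure D2:**
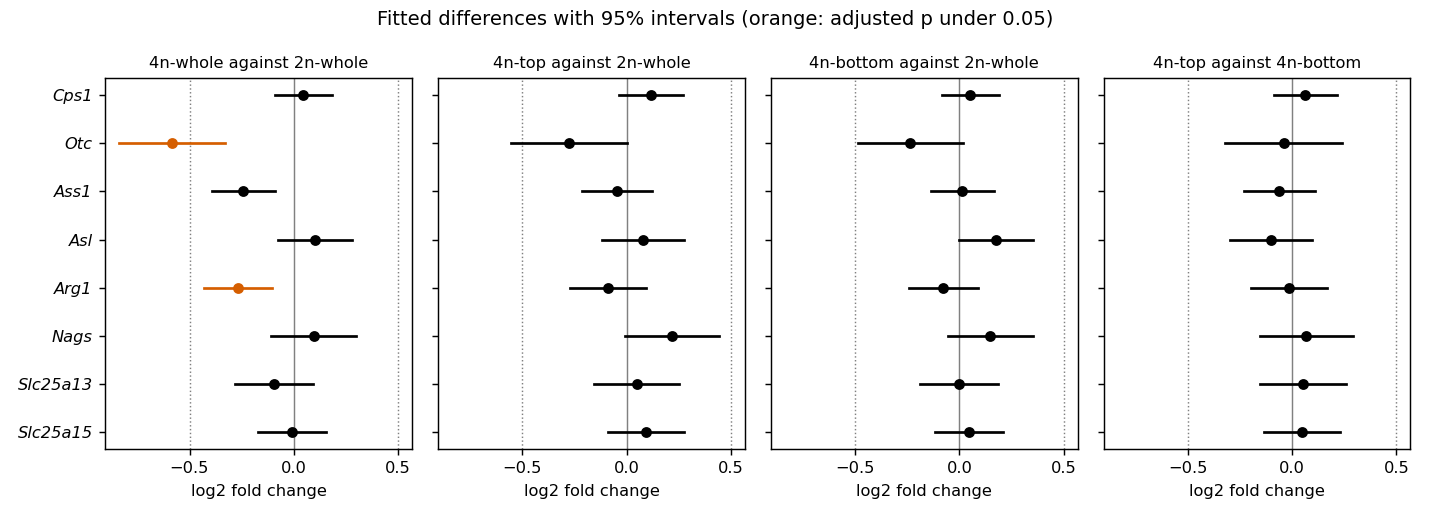
Fitted log2 fold change of each urea cycle gene (points) with its 95% interval (lines) in 4 comparisons, orange where the adjusted p was under 0.05, with dotted lines at -0.5 and 0.5. Only Otc and Arg1 in 4n-whole against 2n-whole are orange, and only Otc lies beyond a dotted line.

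The next comparison asked whether the genes differ between the 2 tetraploid gates. In 4n-top against 4n-bottom 0 of the 8 genes passed by edgeR's test, and 0 had an unadjusted p under 0.05, against 2.79% of all tested genes. This was also the comparison with the fewest DEGs of the 4 in the design, 0.0114% of all tested genes, or 0.00572% lower and 0.00572% higher at the adjusted p alone. DESeq2 with the replicate block also called 0 of the 8. All 8 fitted log2 fold changes lay between -0.10 (Asl) and 0.07 (Nags), with a median of 0.02 against 0.00 over all tested genes. Otc was at 427, 294, 230 and 331 CPM in 4n-bottom of mice 1 to 4 and at 290, 270 and 271 CPM in 4n-top of mice 2 to 4. These values overlapped, with 4n-top higher in 1 of 3 mice, and the fitted difference was -0.04 (SE 0.14). The 95% intervals of the ratio were 0.942 to 1.16 for Cps1, 0.801 to 1.18 for Otc, 0.853 to 1.08 for Ass1 and 0.873 to 1.12 for Arg1. The 4n-top gate also held binucleated cells, so these intervals concern the gates and not pure nuclear states.

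Each tetraploid gate was also compared with 2n-whole, and both comparisons and the first one share the same 2n-whole libraries. In 4n-bottom 0 of 8 genes passed (all tested genes: 0.463% DEGs; 0.234% lower and 0.257% higher at the adjusted p alone), and in 4n-top 0 of 8 passed (0.961% DEGs; 0.543% lower and 0.515% higher). At an unadjusted p under 0.05, 1 and 0 of the 8 genes were counted, against 10.2% and 11.3% of all tested genes, so the count of 1 was near the background. That gene, Asl in 4n-bottom, was at 451, 728, 1203 and 856 CPM in mice 1 to 4 against 433, 636, 956 and 787 CPM in 2n-whole. It was higher in 4 of 4 mice, at a log2 fold change of 0.18 (SE 0.09, adjusted p = 0.49), while the groups overlapped. Otc had log2 fold changes of -0.23 in 4n-bottom (SE 0.12, adjusted p = 0.53, lower in 4 of 4 mice) and -0.28 in 4n-top (SE 0.14, adjusted p = 0.45, lower in 3 of 3 mice). Both changed sign, to above 0, with the mitochondrial share as a covariate. Ass1 was at 3735, 4573, 3224 and 4621 CPM in 4n-bottom and at 4545, 3281 and 3953 CPM in 4n-top, with log2 fold changes of 0.01 and -0.05.

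In 4n-top the values of 3 of the 8 genes did not overlap those of 2n-whole, though none passed the test. Over all tested genes 9.21% had ranges that did not overlap in this comparison. Nags was at 43.0, 45.8 and 40.6 CPM in mice 2 to 4, above the 29.1, 37.2, 39.5 and 34.5 CPM of 2n-whole in mice 1 to 4, at a log2 fold change of 0.22 (SE 0.11, adjusted p = 0.46). Cps1 was at 9315, 9096 and 8404 CPM, above all 2n-whole values, at 0.12 (SE 0.07, adjusted p = 0.60). Otc was below all 2n-whole values. For Nags and Cps1, mouse 1, which had the lowest 2n-whole value, has no 4n-top library here. For Otc the same mouse had the highest 2n-whole value. Its Otc in 4n-whole (368 CPM) and 4n-bottom (427 CPM) lay within the range of 2n-whole (303 to 429 CPM).

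The 4n-whole sort holds cells of both gates, and its values did not always lie between those of 4n-bottom and 4n-top. In comparisons added after the data were seen, 0 of 8 genes passed in 4n-whole against 4n-bottom (0.00572% of all genes were DEGs) and 0 of 8 in 4n-whole against 4n-top (0% were DEGs, by edgeR). At an unadjusted p under 0.05 there were 3 and 2 of the 8 genes, against 5.57% and 4% of all tested genes. Against 4n-bottom these were Ass1 (-0.26, SE 0.07, adjusted p = 0.48, lower in 4 of 4 mice), Otc (-0.35, SE 0.12, adjusted p = 0.82, lower in 3 of 4) and Arg1 (-0.19, SE 0.08, adjusted p = 0.85, lower in 4 of 4). Against 4n-top they were Otc (-0.31) and Ass1 (-0.20), both with an adjusted p of 0.98 and lower in 3 of 3 mice, and Arg1 was at -0.18. All comparisons with 4n-whole use the same 4n-whole libraries, so their results are not independent of each other. The 3 genes with the lowest values in 4n-whole against 2n-whole also had their lowest mean in 4n-whole among the 4 populations. The same held for the mean CPM of Slc25a13 (149.7 in 4n-whole). For Slc25a15 it held narrowly over all libraries (393 in 4n-whole, 393.9 in 2n-whole), but over mice 2 to 4 its lowest mean was in 2n-whole. The test of whether the difference between 4n-whole and 2n-whole was unlike that between 4n-top and 4n-bottom called 0 of 8 genes (0.114% of all tested genes). Otc gave the largest value of the 8 in it, -0.54 (SE 0.18, adjusted p = 0.30), and 2 of 8 genes, Otc and Arg1, had an unadjusted p under 0.05, against 9.62% of all tested genes.

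Most of these genes differed between mice. A test of the mouse term in the same fit, added after the data were seen, passed for 5 of the 8 genes against 19.2% of all tested genes, most of which had lower counts than the members. The adjusted p was 1.8e-09 for Asl, 1.9e-06 for Arg1, 0.00054 for Ass1, 0.0042 for Otc and 0.0073 for Nags, and 0.079 for Slc25a15, 0.12 for Cps1 and 0.13 for Slc25a13. A mouse here stands for the animal, its liver digestion and whatever was done with its cells together, which cannot be told apart.

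Asl, which cleaves argininosuccinate, had the widest range, 1.29 log2 units between the lowest and the highest mouse mean over the 3 populations that all mice share, against 0.22 between population means over mice 2 to 4. Its 3 libraries of mouse 1 were at 433, 399 and 451 CPM, while those of mouse 3 were at 956, 984 and 1203 CPM, and no library of any other mouse was below 636 CPM. Arg1 ranged over 0.81 units between mice against 0.31 between populations, Nags over 0.52 against 0.22, and Ass1 over 0.42 against 0.26. For Otc the population range (0.73) was above the mouse range (0.64). Mouse 1 was lowest for Cps1, Asl, Arg1 and Nags and highest for Otc, whereas Ass1 was lowest in mouse 3.

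**Figure D3:**
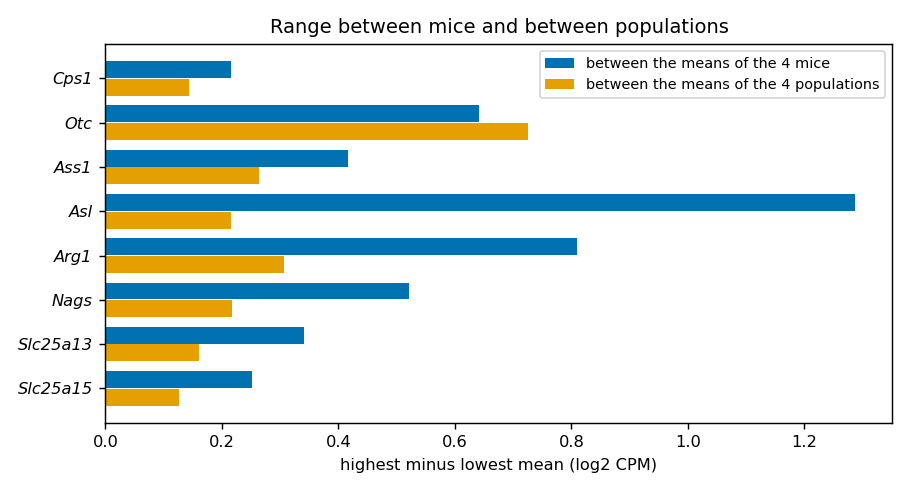
For each urea cycle gene, the distance in log2 CPM between the lowest and highest mean of the 4 mice (blue, over 2n-whole, 4n-whole and 4n-bottom) and of the 4 populations (yellow, over mice 2 to 4). The mouse bar is longer for 7 of the 8 genes, most for Asl (1.29 against 0.22), and Otc is the exception (0.64 against 0.73).

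The libraries were used to ask whether the genes vary together. This is a description over 15 libraries that share 4 mice, and correlation across them carries no test. With the means of the mice removed, Pearson's r of log2 CPM over the 28 pairs ran from -0.61 (Asl and Otc) to 0.82 (Ass1 and Arg1) with a median of 0.11, and 18 of 28 were above 0. For comparison, the median of r between a member and the 6848 genes with a mean of at least 10 CPM was 0.06. Otc, Ass1 and Arg1 went together, with r of 0.79 for Otc and Ass1 and 0.80 for Otc and Arg1, and Slc25a13 joined them at 0.65 to 0.73. Removing the mouse means left the differences between populations in place, so these r include the lower values of Otc, Ass1 and Arg1 in 4n-whole. Asl and Slc25a15 were at 0.58. With the mouse means kept, other pairs were highest: Arg1 and Asl were at 0.86 and Asl and Nags at 0.84, while Arg1 and Ass1 were at 0.04 and Arg1 and Otc at -0.26. Some pairs were high in both, such as Cps1 and Slc25a15, at 0.74 with the mouse means removed and 0.56 with them kept.

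**Figure D4:**
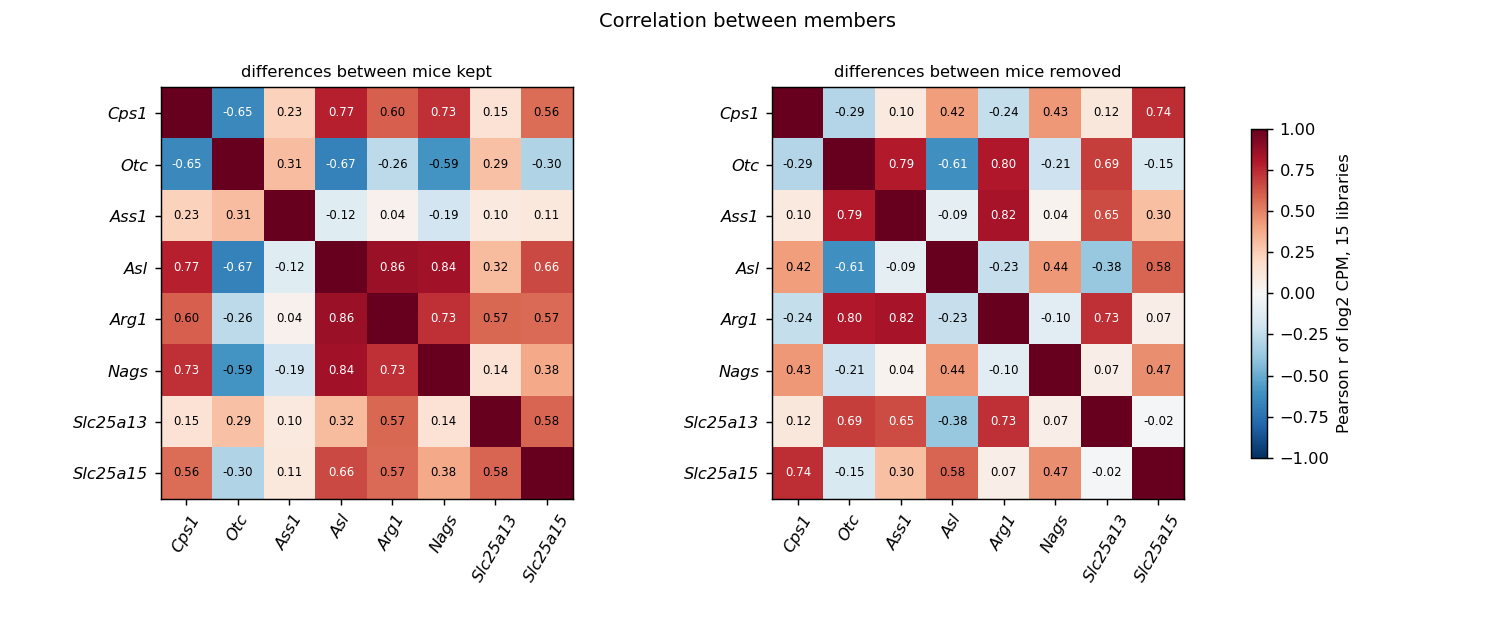
Pearson's r of log2 CPM between urea cycle genes over 15 libraries, with the differences between mice kept (left) and removed (right), red for positive and blue for negative values. On the right Otc, Ass1, Arg1 and Slc25a13 share values of 0.65 to 0.82, and on the left Asl, Arg1, Nags and Cps1 share values of 0.60 to 0.86.

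Among all genes of at least 10 CPM, those with the pattern most like Otc, with mouse means removed, were Cfhr4 (r = 0.99), Selenot (0.99) and Sppl2a (0.99). Nearest to Cps1 were Trap1 (0.91), a mitochondrial chaperone, Gpt2 (0.90), an alanine aminotransferase of mitochondria, and Slc27a5 (0.89). Nearest to Ass1 were Cpn2 (0.94), Pgam1 (0.94) and Fbp1 (0.93), the last being the gluconeogenic fructose bisphosphatase. For Arg1 they were Nek6 (0.95), Mug2 (0.95) and Ahcyl2 (0.92), for Asl Itih3 (0.94), Ell (0.91) and Khk (0.91), and for Nags Dlg3 (0.88), Angptl8 (0.88) and Txnrd2 (0.87). For Slc25a13 they were Cd47 (0.92), Aldh6a1 (0.91) and Uqcrc2 (0.90), and for Slc25a15 Ss18l2 (0.96), Atp6v0c (0.89) and Ctbp1 (0.88). No member was among the 3 nearest genes of another member. With the mouse means kept, r with Arg1 was -0.59 for Nek6, -0.20 for Mug2 and -0.40 for Ahcyl2. It was -0.095 for Nags and Angptl8, and above 0 for the other neighbours named here.

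Genes that feed nitrogen to the cycle or remove it were set beside the 8. Of 30 genes of ammonia and glutamate supply, 4 rose and 3 fell in 4n-whole against 2n-whole, with a list median of 0.05. Glul, glutamine synthetase, rose by a log2 fold change of 1.30 (SE 0.15, adjusted p = 1.35e-06), and Slc1a2, a glutamate importer, by 1.58 (SE 0.19, adjusted p = 3.7e-06). The proline dehydrogenases Prodh2 (0.53) and Prodh (0.39) also rose, while the mitochondrial aspartate and glutamate carrier Slc25a12 (-0.53), the lysine-degrading Aass (-0.34) and serine dehydratase Sds (-0.33) fell. Slc25a12 is the paralog of the member Slc25a13, whose own difference did not pass. In 4n-bottom Slc1a2 (1.92) and Glul (1.43) rose against 2n-whole, and in 4n-top only Slc1a2 of the list did (0.84). In 4n-top against 4n-bottom Glul was the only gene of the list that passed, lower by -0.90 (SE 0.16, adjusted p = 0.0499).

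Of 15 tested genes that use arginine or ornithine, 2 rose and 2 fell in 4n-whole against 2n-whole, with a median of -0.25 that included genes under 1 CPM. Oat, ornithine aminotransferase, which draws ornithine away from the cycle, rose by 1.61 (SE 0.19, adjusted p = 4.37e-06) and Agmat by 0.35, while Ddah1 (-0.34) and the arginine transporter Slc7a2 (-0.32) fell. Oat was also higher against 2n-whole in 4n-bottom (1.16, adjusted p = 0.0013) and in 4n-top (1.17, adjusted p = 0.0012). Of 22 hormonal and transcriptional regulators, 4 rose and 1 fell in 4n-whole: the glucagon receptor Gcgr (0.54), the deacetylase Sirt3 (0.47), Cebpa (0.45) and Creb3l3 (0.35) rose, and the coactivator Ppargc1a fell (-0.59). None of the 22 passed in the other 3 comparisons of the design.

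Landmark genes of the liver lobule moved with the same comparison. Of 11 periportal landmarks, with the 4 urea cycle genes on that list left out, 6 fell and 0 rose in 4n-whole against 2n-whole (median -0.33), led by Aldh1b1 (-1.16), Cyp2f2 (-0.74), Cdh1 (-0.63) and Hsd17b13 (-0.61), with Igf1 (-0.48) and Sds (-0.33). Of 14 pericentral landmarks, 12 rose and 0 fell (median 1.59), among them Cyp1a2 (1.65), Gulo (1.58), Tbx3 (2.07) and Cyp2e1 (1.71). Of the 4 urea cycle genes held to be periportal landmarks, Arg1 was lower past the test, Ass1 was at -0.24, Asl at 0.10 and Cps1 at 0.04. In 4n-bottom against 2n-whole 1 of 11 periportal landmarks fell and 7 of 14 pericentral landmarks rose, and in 4n-top 3 fell and 8 rose. In 4n-top against 4n-bottom 0 periportal landmarks passed, with a median of -0.20. Of the 14 pericentral landmarks only Glul passed, as lower, while the median of that list was above 0, at 0.28. How far the lobular origin of the cells had a part in the values of Otc, Arg1 and Ass1 was not tested. Of the other cell types' markers, 2 cholangiocyte genes passed in 4n-whole against 2n-whole, Spp1 at -2.81 and Sox9 at -0.62, and 0 endothelial, Kupffer and stellate genes did. With the mean of the endothelial, Kupffer and stellate markers as a covariate, Otc was at -0.52 with an adjusted p of 0.074.

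**Figure D5:**
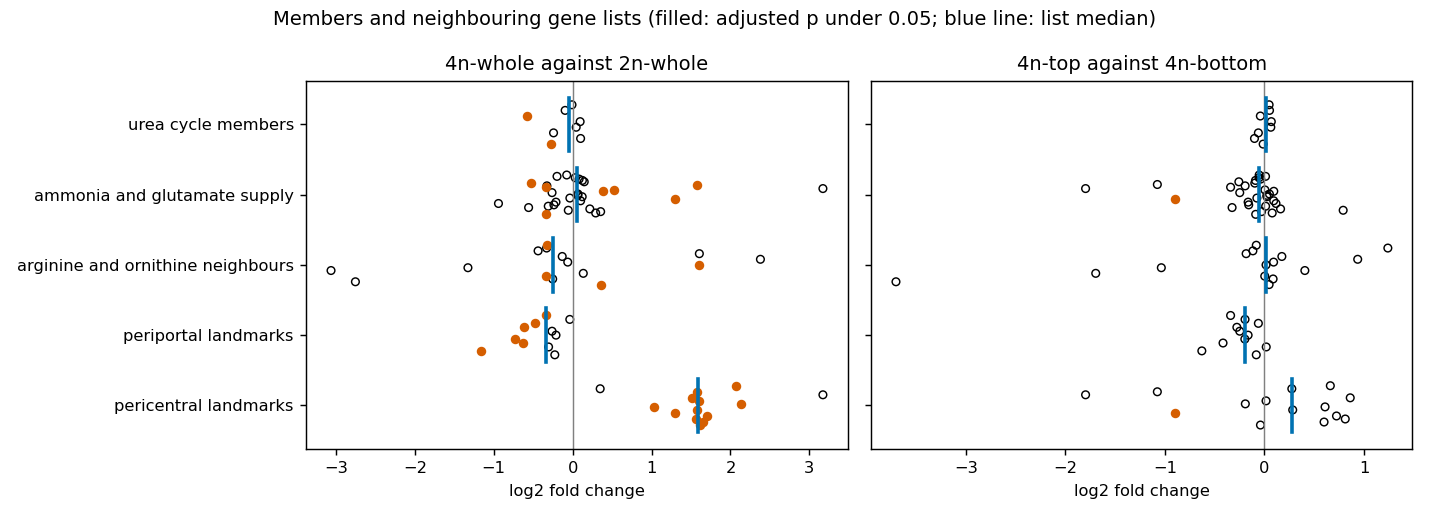
Log2 fold changes of the urea cycle genes and of 4 gene lists in 4n-whole against 2n-whole (left) and 4n-top against 4n-bottom (right), with 1 point per tested gene, filled where the adjusted p was under 0.05, and a blue line at each list's median. On the left the urea cycle genes center near -0.05, the periportal landmarks at -0.33 and the pericentral landmarks at 1.59, and on the right Glul, which is on 2 lists, is the only filled gene.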

How the data were processed

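Raw counts per gene symbol in 15 libraries were used. Per the labels and the paper, the authors prepared libraries with the Takara SMART-Seq Stranded kit, aligned reads to GRCm39 with STAR 2.7.11a (submitters' processing notes) and counted them with featureCounts, and deposited these counts unnormalized and before their ComBat-seq adjustment. The annotation, strand setting and handling of read pairs are not given in the sources used here. The titles number the subjects, which gave the mouse of each library, and the methods name individual mice as the batch. Libraries of one mouse had a mean residual correlation of 0.158 (0.084 to 0.227).

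Genes passing edgeR's filterByExpr (minimum count 10, minimum total 15) were tested with edgeR 4.0.16 in R 4.3.3: TMM, all 15 libraries, population and mouse as replicate block, quasi-likelihood F test and Benjamini-Hochberg adjustment over 17488 genes. P-values set a fitted difference against the residual spread between these libraries, which came from 4 mice. The scripts were tested on simulated data. Correlations used log2 CPM (prior count 2), after mouse means were removed with limma 3.58.1 and differences between populations were kept. Positions are from GENCODE M39 and promoters from RefSeq.

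Members and lists were chosen with earlier results of these data known. Named were all 8 members, genes of a list that passed or had the 3 smallest p, and the 3 genes most correlated with each member. Alternatives were no replicate block, DESeq2 1.42.0, ComBat-seq (sva 3.50.0) then DESeq2, DESeq2 size factors, no filter, compared populations only, no fold limit, a covariate for other cell types, and leaving out each mouse. Added after the data were seen were mitochondrial transcripts left out, their share as covariate, a GC and length offset, halved counts, 4n-whole against either tetraploid gate, and the test of the mouse term.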

Additional observations from a re-analysis of the deposited data

Results flagged for a closer look

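Cps1 in 4n-bottom had 1 library far from the others: mouse 1 was at 7246 CPM, while mice 2, 3 and 4 were at 8725, 8607 and 8511 CPM. The gap to the nearest library was 0.866 of the group's whole range, above Dixon's 95% critical value for 4 samples. Of 24 groups tested for the 8 genes, chance alone would flag about 1 in 20. Mouse 1 also had the lowest Cps1 in 2n-whole (7562 CPM) and in 4n-whole (7155 CPM), so the distance of this library is shared by that mouse's other libraries.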

How the results depend on the processing

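The number of urea cycle genes called in 4n-whole against 2n-whole was 1 (Otc) as reported and 2 (Otc and Arg1) with no fold limit. It was 0 with no replicate block, with the covariate for other cell types, with the covariate for the mitochondrial share and with the GC content and length offset, and between 0 (without mouse 2) and 1 when each mouse was left out. It was 1 in the other alternatives. The log2 fold change of Otc was below 0 in all of them, and ranged from -0.73 to -0.41 when each mouse was left out. The calls in 4n-top against 4n-bottom, 4n-bottom against 2n-whole, 4n-top against 2n-whole and 4n-whole against 4n-top stayed at 0 in every alternative run, the fit with no replicate block included. The difference of the 2 contrasts went from 0 to 1 (Otc) with no filter, and 4n-whole against 4n-bottom ranged from 0 to 1 (Otc, without mouse 3) when each mouse was left out. Ass1 in 4n-whole against 2n-whole passed the adjusted p under DESeq2, ComBat-seq, DESeq2 size factors, no filter, the GC and length offset, mitochondrial transcripts left out, halved counts and without mouse 3, with adjusted p from 0.00038 to 0.041, and over all its alternatives from 0.00038 to 0.72. Arg1 there did not pass with the compared populations only (0.17) or the covariate for other cell types (0.35). Otc in 4n-top against 2n-whole passed with the compared populations only (-0.36, adjusted p = 0.034).

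Over all tested genes, 607 were DEGs in 4n-whole against 2n-whole, but 40 with no replicate block, 1160 after ComBat-seq, 305 with the compared populations only, 290 with the covariate for other cell types, 66 with that for the mitochondrial share, 957 with no fold limit and 244 to 1025 when each mouse was left out. DESeq2 called 49 in 4n-top against 4n-bottom against 2 as reported, and 143 and 329 in 4n-bottom and 4n-top against 2n-whole against 81 and 168. The difference of the 2 contrasts is fitted on all libraries in any case, so it has no value for the compared populations only.

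Differences that did not pass in the reported fit changed sign as follows, as log2 fold changes, and the cause was not tested. Not all of them were near 0: as reported, Otc was at -0.234 in 4n-bottom and -0.275 in 4n-top against 2n-whole. With the covariate for the mitochondrial share, 4n-whole against 2n-whole gave -0.052 for Cps1, -0.102 for Asl and 0.127 for Slc25a13, and 4n-top against 4n-bottom gave 0.075 for Otc and 0.039 for Arg1. With it, 4n-bottom against 2n-whole gave -0.02 for Cps1, 0.104 for Otc, 0.079 for Arg1, 0.164 for Slc25a13 and -0.033 for Slc25a15, and 4n-top against 2n-whole gave 0.179 for Otc, 0.003 for Ass1, -0.124 for Asl, 0.119 for Arg1 and -0.013 for Slc25a15. With the GC content and length offset, 4n-whole against 2n-whole gave -0.009 for Asl, -0.09 for Nags, 0.075 for Slc25a13 and 0.023 for Slc25a15, and 4n-bottom against 2n-whole gave -0.061 for Ass1 and 0.092 for Slc25a13. With the covariate for other cell types, Arg1 gave 0.042 in 4n-top against 4n-bottom, 0.027 in 4n-bottom and 0.068 in 4n-top against 2n-whole, and Slc25a13 gave 0.087 in 4n-bottom against 2n-whole. With no replicate block, 4n-top against 4n-bottom gave 0.072 for Asl and 0.124 for Arg1, and 4n-top against 2n-whole gave 0.022 for Arg1. The compared populations only gave 0.019 for Arg1 in 4n-top against 4n-bottom and -0.021 for Slc25a13 in 4n-top against 2n-whole. With no filter, Slc25a15 gave 0.004 in 4n-whole against 2n-whole and Slc25a13 0.002 in 4n-bottom against 2n-whole. Ass1 in 4n-bottom against 2n-whole gave -0.007 with DESeq2, -0.01 after ComBat-seq, -0.007 with DESeq2 size factors and -0.006 with halved counts.

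When each mouse was left out, Slc25a15 in 4n-whole against 2n-whole ran from -0.042 to 0.054. In 4n-top against 4n-bottom the range was -0.121 to 0.065 for Otc, -0.103 to 0.012 for Ass1, -0.083 to 0.023 for Arg1 and -0.013 to 0.143 for Slc25a13. In 4n-bottom against 2n-whole it was -0.037 to 0.027 for Ass1 and -0.075 to 0.041 for Slc25a13, and in 4n-top against 2n-whole -0.14 to 0.024 for Ass1, -0.026 to 0.121 for Asl and -0.023 to 0.149 for Slc25a13. Each of the 8 genes had at least 1004 counts in every library.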
